A study of Mus musculus with 12 samples.

Results

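The genes described here are the nuclear genes of the mitochondrial respiratory chain and the ATP synthase, taken by symbol as those beginning with Ndufa, Ndufb, Ndufc, Ndufs, Ndufv, Uqcr, Cox4 to Cox8 or Atp5, and Sdha to Sdhd. The rule found 90 of the 22293 gene symbols that occur once per library. They comprised 40 genes of complex I, 4 of complex II, 8 of complex III, 20 of complex IV and 17 of the ATP synthase. The last one was Cox4nb, a neighbour of Cox4i1 that encodes a subunit of an endoplasmic reticulum membrane complex and no respiratory protein. Complex I was made up of 7 core subunits, 29 accessory subunits and 4 assembly factors. The complex IV genes held 8 tissue isoforms. Genes encoded in the mitochondrial DNA were not analysed here, and the cytochrome c1 gene Cyc1 fell outside the rule.

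Complexes I and II pass electrons from NADH and succinate to ubiquinone, complex III passes them on to cytochrome c, and complex IV hands them to oxygen. The proton gradient built along the way drives the ATP synthase. Male germ cells are known for carrying testis forms of several of these subunits, and for silencing the X chromosome during meiosis, when autosomal copies of X-linked genes are used instead.

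RNA-seq was made from mice on a CBA/C57 hybrid background, either wild type (WT) or carrying a CRISPR-Cas9 frameshift deletion in Zmym3 (KO), an X-linked gene of a zinc finger protein. Cultured spermatogonial stem cells (SSCs) grown on laminin, and c-KIT+ cells obtained from such cultures with 100 nM retinoic acid (RA) for 36 h, were labelled as coming from 2-month-old males. Each of these 4 groups had 2 libraries. Spermatocytes were sorted from testes of 5- and 7-month-old males as tetraploid cells, most of them in pachytene by the study's methods, with 1 library per genotype and age. The KO males were bred from female founders made by zygote injection, so the inherited deletion is present in every cell type. The labels do not say whether the libraries of a group came from separate cultures, so the p-values reflect library-to-library spread that may be purely technical. The c-KIT+ cells were made from SSC cultures, so both cell states of a genotype may share a line. Spermatocytes differ from the cultures in age and source as well as in cell type, and these cannot be told apart.

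The unit was FPKM, fragments per transcript length scaled to the mapped fragments of the library, which is meant to make genes of different length comparable. How well it does so for very short transcripts, which many members have, was not tested. The sum of FPKM per library was 264435 to 303690, and 11296 to 11597 genes reached 1 FPKM in the cultures against 9007 to 9333 in spermatocytes. A single gene took 8.80% of this sum in WT SSC library 1 and 2.60% in KO c-KIT+ library 1, against at most 0.957% in the others. Zmym3 was at 37.4 to 40.2 FPKM in WT cultures and at 9.19 to 11.3 in KO cultures. In spermatocytes it was at 0.146 to 0.460 in both genotypes, so it could not check the labels there. The 12 spermatocyte markers summed to 4004 to 4194 FPKM in spermatocytes and to 116 to 149 in SSCs. The 10 spermatid markers were all above 1 FPKM in the sorted cells, and summed to 523 to 557 in WT and 228 to 274 in KO, against 8.67 to 13.0 in SSCs.

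Promoters of 74 of the 90 genes were in the RefSeq table of GRCm38.p6 (250 bases before to 50 after the start). The sites of transcription factors known from nuclear respiratory genes were searched as fixed letters on both strands. The core bound by NRF1 (GCGCA, any base, then GCGC) was in 23.0% of these 74 promoters and in 6.60% of 17492 promoters of protein-coding genes. CCGGAAG, bound by ETS factors such as GABP, was in 21.6% and 11.9%. TGACGTCA, the cyclic AMP response element, was in 5.41% and 2.34%, and the MYB core CAGTT was in 40.5% and 41.6%. The ratio of observed to expected CpG exceeded 0.6 in 82.4% of the members' promoters and in 48.3% of all, with medians of 0.83 and 0.58. These matches are descriptions of letters and not evidence of binding.

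Among the complex IV isoform pairs, the 250 bases before the start are shown for Cox6b1 and Cox7b and for their testis forms Cox6b2 and Cox7b2, whose share of each pair was higher in spermatocytes than in SSCs. Capitals mark the ETS letters, here on the opposite strand, and the only match of the NRF1, ETS or cyclic AMP letters in these 4 stretches. The ratio of observed to expected CpG was 0.77 for Cox6b1, 0.43 for Cox6b2, 0.43 for Cox7b and 0.57 for Cox7b2. Positions are on GRCm38.p6, in the order chr7:30626115-30626364 (minus strand), chr7:4753095-4753344 (minus), chrX:106015450-106015699 (plus) and chr5:71548206-71548455 (minus).
Cox6b1: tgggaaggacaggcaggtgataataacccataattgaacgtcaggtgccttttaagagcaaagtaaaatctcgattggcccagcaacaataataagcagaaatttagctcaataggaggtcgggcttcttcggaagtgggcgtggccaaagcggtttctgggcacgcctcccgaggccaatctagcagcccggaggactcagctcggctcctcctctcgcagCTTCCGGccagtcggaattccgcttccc
Cox6b2: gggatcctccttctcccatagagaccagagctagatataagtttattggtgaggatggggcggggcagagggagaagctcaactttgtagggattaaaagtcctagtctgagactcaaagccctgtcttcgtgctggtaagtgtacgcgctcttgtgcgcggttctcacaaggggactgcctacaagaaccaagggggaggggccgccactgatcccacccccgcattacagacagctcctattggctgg
Cox7b: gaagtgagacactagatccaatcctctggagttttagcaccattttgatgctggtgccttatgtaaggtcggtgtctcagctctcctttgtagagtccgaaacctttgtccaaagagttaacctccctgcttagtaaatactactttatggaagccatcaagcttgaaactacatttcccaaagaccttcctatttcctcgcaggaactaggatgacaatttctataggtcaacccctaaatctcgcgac
Cox7b2: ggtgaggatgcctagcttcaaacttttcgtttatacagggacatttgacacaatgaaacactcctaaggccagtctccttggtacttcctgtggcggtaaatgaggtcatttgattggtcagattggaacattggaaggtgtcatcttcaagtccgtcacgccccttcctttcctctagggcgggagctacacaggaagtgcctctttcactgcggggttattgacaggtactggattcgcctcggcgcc

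Most of the genes were strongly expressed in every library. The median member stood at 47.3 to 57.4 FPKM in the 8 culture libraries. Summed over complex I, the level was 2297 to 2734 FPKM in the cultures, 4387 to 4461 in spermatocytes at 5 months and 3280 to 3362 at 7 months. Complex IV summed to 2317 to 2991 in the cultures, and to 4612 to 4818 and 3639 to 3696 at the 2 ages. For the ATP synthase the sum was 2173 to 2539, then 3421 to 3533 and 1970. In WT at 5 months Atp5k gave 1119 of the 3533, Atp5e 910 and Atp5j2 435. The median gene did not always follow the sum. For complex IV it was at 29.8 to 37.4 FPKM in the cultures and lower, at 13.5 to 20.4, in spermatocytes. For the ATP synthase it was at 102 to 119 and at 83.9 to 89.7. The complex I median was higher in spermatocytes, at 64.4 to 86.7 against 44.4 to 53.9. Complex II, at 268 to 327 in the cultures, was lower in all 4 spermatocyte libraries, at 234 to 265.

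Within each complex the levels of structural subunits differed widely. Cox4i1, the ubiquitous form of subunit 4, was the highest gene of complex IV on average, at 698 to 936 FPKM in the cultures and 689 to 718 in spermatocytes. The most abundant complex I gene was Ndufa7 at 195 to 271, that of complex III Uqcrq at 127 to 508, and that of complex II Sdha, the flavoprotein of succinate dehydrogenase, at 80.8 to 123. Atp5k, subunit e in the membrane part of the ATP synthase, ran from 288 to 1119. At the other end, Ndufs5 was listed at no more than 0.000289 FPKM in 8 of 12 libraries and at 1.81 to 2.17 in the rest. Atp5l, subunit g of the ATP synthase, was at 1.11 to 4.71 and Cox5b at 7.85 to 17.3, while Uqcrb was at 6.43 to 28.2. Among 74 subunits, 9 had pseudogene transcripts of at least 95% identity over at least 60% of their length, and 5 of these 9 averaged under 15 FPKM in the cultures, against 3 of the 65 without such copies. The levels of Atp5h, Uqcrb, Atp5g2, Atp5l, Ndufab1, Ndufs5, Atp5o, Ndufs3 and Ndufs6 are therefore uncertain, since reads could be split among copies. The loci of 9 members overlapped another entry, among them Atp5f1 with Wdr77, Uqcrc2 with Pdzd9, and Ndufb11 with Rbm10. Reads shared by such genes cannot be assigned with certainty, as counting by strand is not stated.

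Spermatocytes sorted from testes were compared with cultured SSCs, from which they differ in more than entry into meiosis. The 3 largest differences among the members in WT were those of complex IV isoforms. Cox6b2, the testis form of subunit 6b on the intermembrane side, was at 2.88 and 2.68 FPKM in WT SSCs and at 790 and 815 in WT spermatocytes of 5 and 7 months. In KO it was at 2.23 and 4.44 in SSCs and at 715 and 750 in spermatocytes. No spermatocyte value overlapped an SSC value. In such bulk libraries fewer cells of a type and less RNA per cell cannot be told apart. On the log2(FPKM + 1) scale the difference was 7.73 ± 0.25 (SE) in WT and 7.45 ± 0.25 in KO (limma adjusted p = 2.43e-09 and 3.23e-09). Its ubiquitous partner Cox6b1 went the other way, from 354 and 319 in WT SSCs to 30.2 and 23.4 in WT spermatocytes. The corresponding KO values were 298 and 311 against 28.3 and 19.9. This was a difference of -3.61 ± 0.17 in WT and of -3.63 ± 0.17 in KO (limma adjusted p = 3.41e-08 and 3.43e-08). Cox6b2 made up 0.741 to 1.41% of the pair in SSCs and 96.2 to 97.4% in spermatocytes.

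The same pattern was found for subunit 8. Cox8c was at 5.93 and 7.45 FPKM in WT SSCs, at 4.94 and 6.03 in KO SSCs, and in spermatocytes at 1233 and 782 in WT and 1154 and 796 in KO. Cox8a, the ubiquitous form, was at 365 and 301 in WT SSCs and at 5.41 and 6.37 in WT spermatocytes. In KO it was at 256 and 307, and at 7.00 and 7.75. Every spermatocyte library was thus far above SSCs for Cox8c and far below them for Cox8a. The differences in WT were 7.00 ± 0.24 and -5.60 ± 0.16 (limma adjusted p = 3.68e-09 and 8.62e-10), and in KO 7.21 ± 0.24 and -5.07 ± 0.16 (3.16e-09 and 1.68e-09). Cox8c made up 1.60 to 2.41% of the pair in SSCs and 99.0 to 99.6% in spermatocytes. In the WT library of 5 months, the single one with confidence limits, the Cox8a value rested on 36 fragments, with limits of 3.60 to 7.21 FPKM.

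Cox7b, an X-linked subunit, and its autosomal relative Cox7b2 differed from these pairs in that both were expressed in SSCs. Cox7b2 already stood at 43.8 and 44.7 FPKM in WT SSCs, above Cox7b at 29.9 and 24.9, and made up 59.4 to 69.8% of the pair over the 4 SSC libraries. In spermatocytes Cox7b2 was at 331 and 176 in WT and at 313 and 175 in KO. Cox7b fell to between 0.0557 and 0.230 in the 4 spermatocyte libraries, and in the WT library of 5 months its 0.108 FPKM rested on 2 fragments. Cox7b2 was higher by 2.42 ± 0.32 in WT and 2.21 ± 0.32 in KO (limma adjusted p = 6.07e-05 and 0.000117).

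**Figure D1:**
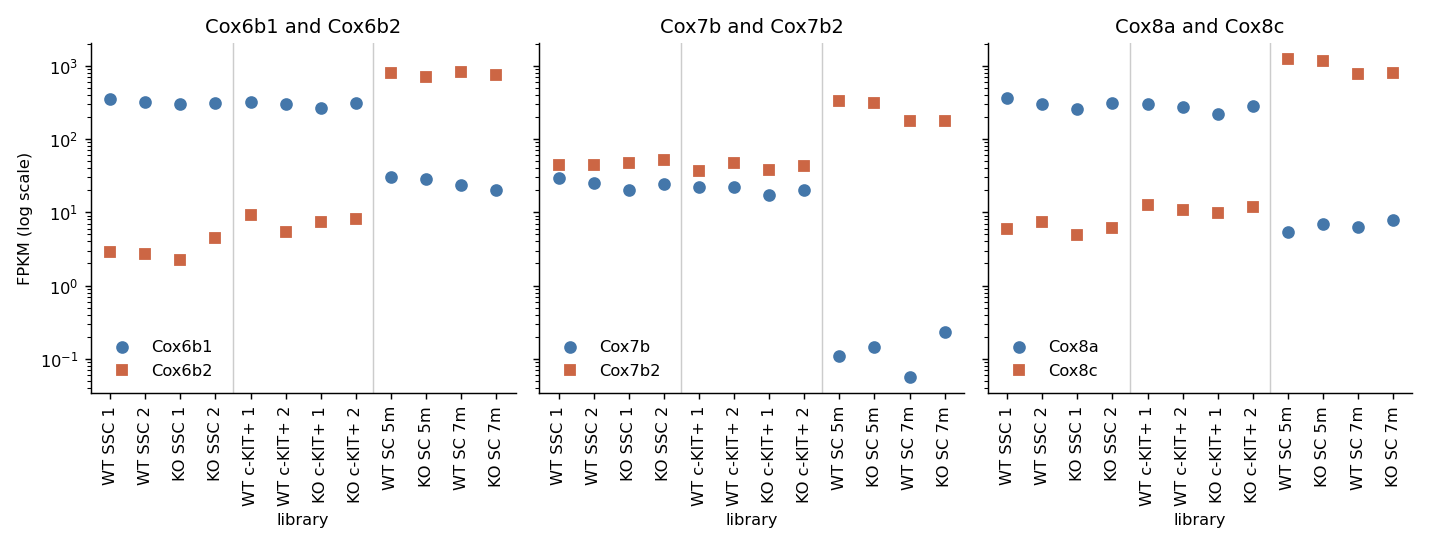
FPKM on a log axis in each of the 12 libraries (SC, spermatocytes, with age in months) for 3 pairs of complex IV genes, the ubiquitous form as circles and the testis form as squares. Cox6b2 and Cox8c did not exceed 12.5 FPKM in the cultures and were at 715 to 1233 in spermatocytes, whereas Cox7b2 exceeded Cox7b in every library.

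The other tissue isoforms behaved differently. Cox7a1, the form known from heart and skeletal muscle, was at 12.5 to 17.7 FPKM in SSCs and at 0.352 to 2.31 in spermatocytes (limma, -2.93 ± 0.37 in WT, adjusted p = 4.36e-05). Its partner Cox7a2 was at 81.0 to 89.3 in SSCs and rose to 138 to 274. Ndufa4, once assigned to complex I and now to complex IV, was at 182 to 201 in SSCs and at 7.67 to 13.8 in spermatocytes, a difference of -3.91 ± 0.24 in WT (limma adjusted p = 2.37e-07). Ndufa4l2, its hypoxia-induced relative, rose from between 1.12 and 2.17 to between 7.43 and 13.2 (2.47 ± 0.25 in WT, limma adjusted p = 8.42e-06). The sum of the 2 was 20.4 to 23.4 in spermatocytes against 185 to 202 in SSCs. Cox4i2, known from lung, did not exceed 0.528 in any library. Cox6a2 and Cox8b, forms of striated muscle, were listed at 0 in all 12 libraries. Cox6a1, the partner of Cox6a2, was at 360 to 479 in SSCs and 350 to 461 in spermatocytes, which overlapped.

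In all, 26 members rose and 27 fell from SSCs to spermatocytes in WT, of 87 that reached 1 FPKM in 2 libraries and were tested. Of all 13247 genes tested 85.9% passed the same threshold (adjusted p under 0.01), 26.1% higher and 59.7% lower. In KO 27 rose and 30 fell, with 85.2% of all genes passing, 25.6% higher and 59.6% lower. The members' median difference was -0.06 in WT and 0.00 in KO, and that of all genes -0.89 and -0.87. Of the members that rose, 26 did so in both genotypes, which is 26 of 26 in WT and 26 of 27 in KO, and 26 fell in both, of 27 and 30. When the libraries were rescaled by median ratios the median of all genes moved to -0.48 in WT, and 15 members fell in WT and 13 in KO. Over all genes the number that fell also moved, from 7915 to 6663 in WT and from 7892 to 6583 in KO.

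Of the 40 complex I members 16 were higher and 9 lower in WT, against 26.1% and 59.7% of all genes. Ndufaf3, an early assembly factor, rose from 5.13 and 4.80 FPKM in WT SSCs to 256 and 304 in WT spermatocytes, and from 5.41 and 5.47 to 239 and 307 in KO. The difference was 5.55 ± 0.14 in WT (limma adjusted p = 5.46e-10). Its assembly partner Ndufaf4 was instead lower, from between 2.86 and 3.25 to between 0.223 and 0.460. Ndufc1, a small membrane subunit, was at 45.1 and 42.0 in WT SSCs and at 491 and 236 in WT spermatocytes (2.94 ± 0.39, limma adjusted p = 6.68e-05). Ndufa12 rose from between 3.16 and 4.89 to between 20.4 and 28.9. Ndufv2 and Ndufb5 rose by 1.86 and 1.95 in WT. The core subunits were split, since Ndufv1, which binds flavin and oxidizes NADH, fell from between 172 and 184 to between 72.7 and 87.7, while its partner in the NADH module, Ndufv2, rose from between 28.9 and 32.1 to between 85.2 and 146. Ndufs8 fell by 1.36 in WT.

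In complex II, Sdhc and Sdhd, the membrane anchors of succinate dehydrogenase, fell by 0.56 and 0.47 on the log2 scale in WT, while Sdha and Sdhb, which carry the flavin and iron-sulphur clusters, did not pass the test (limma adjusted p = 0.392 and 0.865 in WT). The call on Sdhd did not hold under median-ratio scaling, where the sign turned. Other falls of this size, such as that of Sdhc, may not hold there either. In complex III, Uqcrq and the core proteins Uqcrc1 and Uqcrc2 rose by 1.51, 0.64 and 1.12. The Rieske iron-sulphur protein Uqcrfs1 went from between 43.4 and 49.1 FPKM to between 22.4 and 31.5. Pdzd9, which overlaps Uqcrc2 by 228 bases, averaged 0.265 FPKM in SSCs and 55.8 in spermatocytes, and its part in the Uqcrc2 value was not tested.

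Of the 17 ATP synthase members 2 rose and 7 fell in WT, against 26.1% and 59.7% of all genes. The catalytic subunits Atp5a1 and Atp5b fell by 0.45 and 0.64, the latter from 459 and 457 FPKM in WT SSCs to 288 and 301 in WT spermatocytes. Falls of this size may not hold under median-ratio scaling, which moved the median of all genes from -0.89 to -0.48 in WT. Atp5g2 and Atp5g3, copies of the gene for the membrane ring, fell by 1.82 and 0.75. Atp5j, coupling factor 6 of the stalk, rose from between 76.2 and 83.3 to between 139 and 148. Its locus shares 451 bases with that of Gabpa, which averaged 13.5 FPKM in SSCs and 3.66 in spermatocytes. Atp5s, a related protein and no subunit, rose by 2.00. The small subunits Atp5k, Atp5e and Atp5j2 overlapped between the cell types, with higher levels in spermatocytes of 5 than of 7 months.

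**Figure D2:**
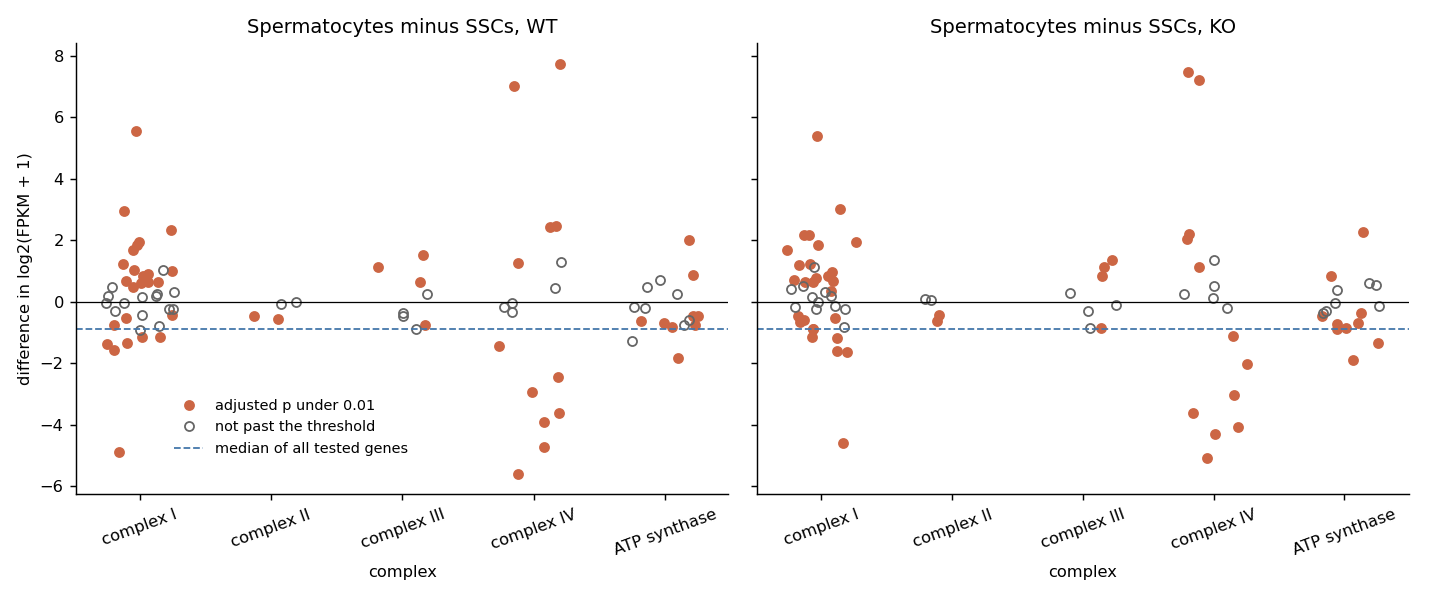
Difference in log2(FPKM + 1) between spermatocytes and SSCs for each tested gene, by complex (horizontal position within a complex is random), in WT on the left and KO on the right. Filled points passed an adjusted p under 0.01, and the dashed line marks the median of all tested genes, at -0.89 in WT and -0.87 in KO. The extremes in both directions are complex IV genes.

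Of the 3 members on the X chromosome, 2 fell sharply. Ndufb11, an accessory subunit of complex I, was at 42.6 and 39.0 FPKM in WT SSCs and at 0.205 and 0.624 in WT spermatocytes, and at 44.1 and 42.5 against 0.844 and 0.863 in KO (-4.90 ± 0.15 in WT and -4.58 ± 0.15 in KO, limma adjusted p = 1.40e-09 and 2.29e-09). Cox7b was described above. Ndufa1, also X-linked and required for complex I assembly, remained at 19.4 and 11.7 in WT spermatocytes and 19.8 and 11.3 in KO, against 25.7 to 32.2 in SSCs. Its difference of -0.92 ± 0.28 in WT did not pass the threshold (limma adjusted p = 0.0125), although the 2 ranges did not overlap. In the WT library of 5 months the Ndufa1 value rested on 103 fragments. Among all tested genes, 94.2% of 486 on the X chromosome fell in WT against 58.4% on the autosomes.

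Partners of the chain outside the rule were followed through lists of related genes. For cytochrome c, Cyct, the testis form, was at 36.9 to 46.1 FPKM in SSCs and at 161 to 261 in spermatocytes, and Cycs, the somatic form, at 3.69 to 4.50 and at 0.164 to 0.554. Cyct already made up 90.4 to 91.1% of the pair in SSCs. Near-identical copies were searched for the members only, so whether reads of Cycs were split among copies was not tested. The share is uncertain to that extent. Pdha1, the X-linked subunit of pyruvate dehydrogenase, was at 23.1 to 24.1 in SSCs and did not exceed 0.156 in spermatocytes, where its autosomal copy Pdha2 was at 53.1 to 63.0. Pdha2 was already at 17.1 to 17.9 in SSCs, 41.5 to 43.6% of the pair. Slc25a31, the germ cell carrier of ADP and ATP, was lower in spermatocytes than in SSCs, at 26.5 to 39.5 against 71.8 to 77.9, as were the somatic carriers Slc25a4 and the X-linked Slc25a5. Slc25a4 was at 0.662 to 2.68 in spermatocytes against 55.0 to 62.7 in SSCs. Slc25a31 thus made up 55.3 to 56.7% of its pair with Slc25a4 in SSCs and 90.8 to 98.4% in spermatocytes. Of 28 tested assembly factors outside the rule 2 rose and 19 fell in WT, and of 13 genes of ubiquinone synthesis 1 rose and 10 fell, against 26.1% and 59.7% of all genes.

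Enzymes that feed the chain and genes of mitochondrial transcription were read against 26.1% of all genes higher and 59.7% lower in WT. In the list of 25 tested genes of the tricarboxylic acid cycle and pyruvate dehydrogenase, 8 rose and 12 fell in WT. Csl, a citrate synthase-like gene, went from at most 0.0663 FPKM in SSCs to 57.3 to 62.9 in spermatocytes, while Cs, the ubiquitous citrate synthase, fell from between 76.0 and 81.9 to between 19.4 and 20.4. Mdh2, the mitochondrial malate dehydrogenase, was at 453 to 486 in SSCs and at 7.79 to 10.95 in spermatocytes. Of 12 genes of mitochondrial transcription and replication 1 rose and 5 fell, and Tfam, which binds and packages mitochondrial DNA, was at 9.63 to 10.9 in SSCs and 0.605 to 0.714 in spermatocytes. None of the 8 tested regulators rose and 6 fell, among them Nrf1 and Gabpa, which bind the promoter letters given above, by 1.98 and 1.65.

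The comparison of c-KIT+ cells with SSCs asks how the genes respond to RA as SSCs turn into c-KIT+ differentiating cells. The differentiation markers, 6 genes, summed to 148 to 160 FPKM in SSCs and 788 to 875 in c-KIT+ cells, and the 10 markers of undifferentiated cells to 482 to 538 and 247 to 273. Few respiratory genes moved. In WT 9 members rose and 3 fell of 87 tested, whereas 40.7% of 11981 genes passed the threshold (adjusted p under 0.01), 24.9% higher and 15.9% lower. In KO 8 rose and 3 fell, with 40.5% of all genes passing, 24.6% higher and 16% lower. Among those that rose, 6 were shared, of 9 in WT and 8 in KO, and 2 of 3 that fell. The median member changed by 0.04 in WT and 0.03 in KO, and the median of all genes by 0.08 and 0.07.

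The testis isoforms were among the genes that rose. Cox6b2 was at 9.18 and 5.41 FPKM in WT c-KIT+ cells and at 7.29 and 8.17 in KO, above all 4 SSC values, and rose by 1.10 ± 0.26 in WT and 1.06 ± 0.26 in KO (limma adjusted p = 0.00635 and 0.00751). Cox8c was at 12.5 and 10.6 in WT c-KIT+ cells and at 9.92 and 11.96 in KO, and rose by 0.71 ± 0.13 and 0.88 ± 0.13 (0.00205 and 0.000639). Among the ubiquitous partners, Cox6b1 was still at 264 to 320 and Cox8a at 217 to 302 in c-KIT+ cells, and the testis forms made up at most 2.79% and 4.37% of their pairs. Cox7b2 overlapped between SSCs and c-KIT+ cells, at 43.8 to 52.4 and 37.1 to 47.6. Cox7a1 rose from 12.5 and 13.1 to 22.0 and 25.1 in WT and from 15.4 and 17.7 to 25.5 and 26.0 in KO (0.83 ± 0.08 and 0.61 ± 0.08, limma adjusted p = 4.66e-05 and 0.000246). In spermatocytes Cox7a1 was lower than in SSCs, as given above.

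Ndufa1, Sdha and Ndufb7 also rose in both genotypes. Ndufa1 went from 32.2 and 26.7 to 51.5 and 43.4 in WT and from 28.5 and 25.7 to 37.2 and 47.9 in KO. Sdha went from 91.5 and 91.7 to 123 and 120 in WT, and from 80.8 and 81.6 to 110 and 110 in KO (0.40 ± 0.04 and 0.43 ± 0.04, limma adjusted p = 7.50e-05 and 5.04e-05), while the other subunits of complex II did not pass. Ndufb7 is described with the KO. Ndufv1 fell from 184 and 172 to 125 and 124 in WT and from 175 and 172 to 121 and 119 in KO (limma adjusted p = 5.12e-05 and 4.31e-05), and Atp5g1 fell by 0.38 and 0.54. Ndufaf4 and Uqcr11 also passed in WT, and Cox5b and Atp5g2 in KO. Cox7c fell in WT by 0.75, and Ndufa4l2 in KO by 1.28, from 2.17 and 1.16 to 0.0585 and 0.101. No member passed the test of the interaction between RA and genotype, so the response is not shown to differ between WT and KO.

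Single libraries weighed on these counts. Without WT c-KIT+ library 1 the genes that rose in WT numbered 3 and those that fell 1, and without WT SSC library 1 or library 2 those that rose numbered 5. In KO the number that rose was 4 without KO SSC library 1 and 5 without KO c-KIT+ library 2, when 6 fell. Cox6b2 no longer passed in WT without WT SSC library 1 or 2 or without WT c-KIT+ library 1. When libraries were scaled by median ratios, 10 members fell in WT and 9 in KO. Over all genes the number that fell also moved, from 1900 to 2584 in WT and from 1912 to 2534 in KO.

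**Figure D3:**
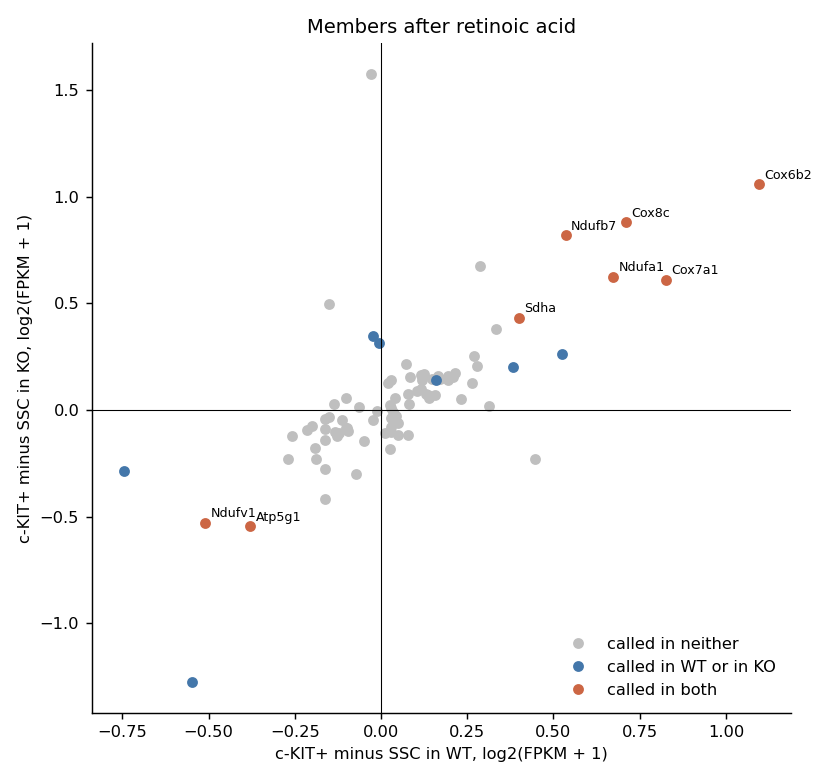
Difference in log2(FPKM + 1) between c-KIT+ cells and SSCs for the 87 tested genes, in WT on the horizontal and KO on the vertical axis, coloured by whether an adjusted p under 0.01 was reached in neither, 1 or both genotypes. Cox6b2, Cox8c, Cox7a1, Ndufa1, Ndufb7 and Sdha lie at the upper right, Ndufv1 and Atp5g1 at the lower left, and the grey point at the top is Ndufs5, listed near 0 in 8 libraries.

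Partners of the chain were read against the 24.9% of all genes that rose with RA in WT and the 24.6% in KO. Of 13 ubiquinone synthesis genes 7 rose in WT and 5 in KO and none fell, and Pdss1, which makes the side chain, rose by 0.73 and 0.70. Of 28 assembly factors 5 rose in WT, and 6 rose and 1 fell in KO, shares below those of all genes. Among them Cox15, needed for haem a, rose by 0.47 and 0.55. Cyct and Cycs both rose, by 0.62 and 0.53 in WT. Atpif1, the inhibitor of the ATP synthase, fell from 209 and 188 FPKM to 105 and 93.3 in WT and from 169 and 220 to 81.4 and 108 in KO (-0.99 ± 0.15 and -1.03 ± 0.15, limma adjusted p = 0.000682 and 0.00055). The 11 genes of cytochrome c, carriers and this inhibitor otherwise gave 5 that rose in WT and 4 in KO.

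The comparison of KO with WT asks which respiratory genes differ without Zmym3. A single member differed in both culture states. Ndufb7, an accessory subunit of complex I on its intermembrane face, lies on chromosome 8 from 86090657 to 86095522 (mm9). It was at 76.2 and 73.1 FPKM in WT SSCs and at 32.2 and 33.1 in KO SSCs. The c-KIT+ values were 114 and 103 in WT and at 56.4 and 60.4 in KO. The genotypes did not overlap in either state, and within each genotype RA raised the level. The KO difference was -1.17 ± 0.06 in SSCs and -0.88 ± 0.06 in c-KIT+ cells (limma adjusted p = 2.30e-05 and 0.000132), and it passed the threshold in all 12 alternative settings for each state. In spermatocytes Ndufb7 was at 148 and 155 in WT and at 145 and 157 in KO, with a difference of -0.00 ± 0.04 (limma adjusted p = 0.987).

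In SSCs 0 members rose and 2 fell of 87, with 4.9% of all genes passing, 2.11% higher and 2.79% lower. The other member was Ndufaf2, an assembly factor of complex I, at 38.6 and 41.3 in WT and 26.7 and 29.2 in KO (-0.50 ± 0.07, limma adjusted p = 0.00244). The call was lost when any 1 of the 4 SSC libraries was left out and without the filter on low values, which left 1 member, and Ndufb7 kept its call in each case. In c-KIT+ cells 1 rose and 1 fell, with 2.7% of all genes passing, 1.11% higher and 1.59% lower. The one that rose was Atp5g2, at 10.1 and 10.7 in WT and 13.9 and 15.4 in KO (0.46 ± 0.06, limma adjusted p = 0.00379), a call lost when either WT c-KIT+ library or KO c-KIT+ library 2 was left out. Without KO c-KIT+ library 1, 2 members fell. Atp5g2 has 2 near-identical pseudogene transcripts. The 10 fibroblast and peritubular markers summed to 103 to 110 FPKM in WT SSCs and 71.9 to 72.4 in KO SSCs, and to 107 to 110 and 73.3 to 75.4 in c-KIT+ cells, with 1 or 2 of them under 1 FPKM in each culture library, and their part in these differences was not tested.

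Genes beside Ndufb7 were read in the same fit. Of the 9 tested genes within 250 kb, Ndufb7 included, the same 4 were lower in KO for both culture states. Ndufb7, which set the window, is 1 of these 4. Of all genes 2.79% were lower in SSCs and 1.59% in c-KIT+ cells. Clgn, a chaperone of germ cells, was at 5.38 and 6.74 FPKM in WT SSCs and 2.90 and 2.77 in KO, and at 16.5 and 15.9 against 8.32 and 8.36 in c-KIT+ cells (limma adjusted p = 0.00072 and 0.000873). Scoc fell by 0.77 and 0.85 and Cd97 by 0.44 and 0.61. Scoc was near the filter of 1 FPKM, at 2.54 and 2.41 in WT SSCs and 1.17 and 0.919 in KO SSCs. Its c-KIT+ values were 3.53 and 3.84 in WT and 1.55 and 1.64 in KO. Tecr, whose locus starts 75 bases after that of Ndufb7 ends, was not lower (-0.07 in SSCs and 0.07 in c-KIT+ cells, limma adjusted p = 0.327 and 0.379), and Dnajb1, Gipc1 and Ddx39 did not pass either. In spermatocytes Clgn was at 369 to 393 in all 4 libraries. These neighbours were looked at after the Ndufb7 values were seen.

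**Figure D4:**
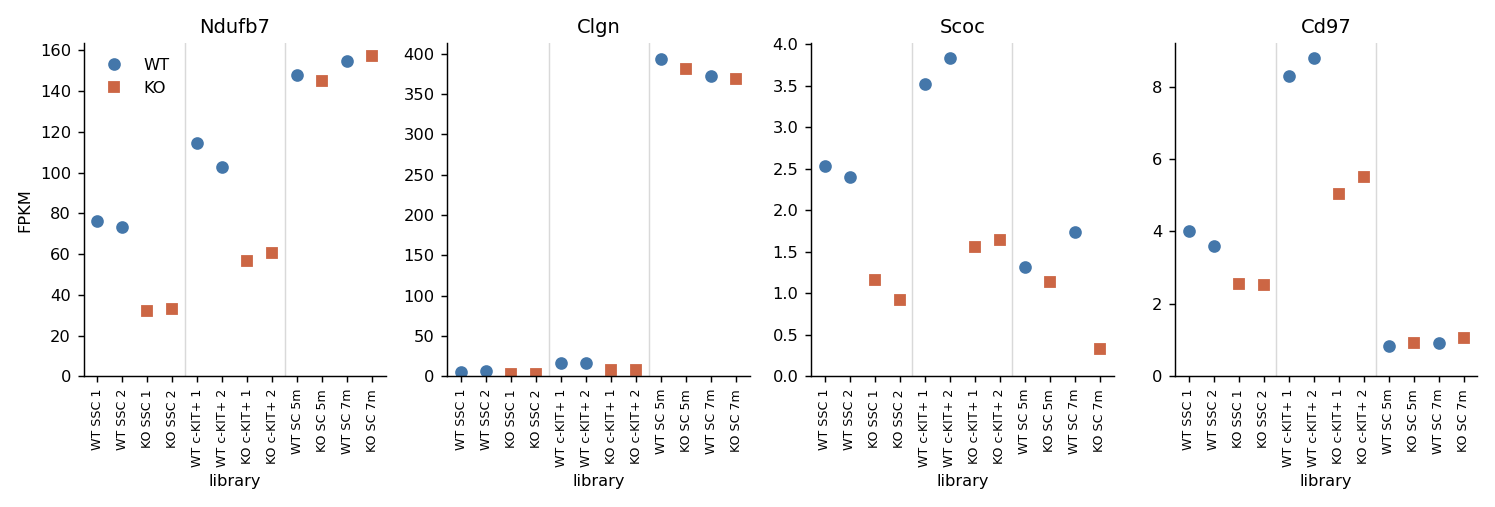
FPKM in each of the 12 libraries (SC, spermatocytes, with age in months) for Ndufb7 and 3 genes within 250 kb on chromosome 8, WT as circles and KO as squares, each panel on its own linear axis from 0. In SSCs and c-KIT+ cells the KO values lie below the WT values of the same state in all 4 panels, and in spermatocytes the Ndufb7 values of the genotypes are 145 to 157.

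None of the 87 members passed the interaction of RA and genotype, nor did any gene (percent passing 0, smallest adjusted p over all genes 0.123 in limma). At an unadjusted p under 0.05 there were 7 of 87 members, Ndufb7 among them, and 865 of 11981 genes, so the members' share was close to that of all genes. The difference between the KO effects in spermatocytes and SSCs, a test added after the values were seen, passed for 1 member, Ndufb7 (1.16 ± 0.12, limma adjusted p = 0.00359), and 0 passed in the lower direction. Of all genes 0.702% passed, 0.415% higher and 0.287% lower. The Ndufb7 call was lost when any 1 of the 4 SSC libraries was left out.

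In spermatocytes none of 82 tested members passed an adjusted p under 0.05 for the KO, where 1.67% of all genes did, 0.332% higher and 1.34% lower. At an unadjusted p under 0.05 there were 11 of 82 members, 2 higher and 9 lower in KO, and 1098 of 9350 genes, so this share was also close to that of all genes. The smallest adjusted p was that of Ndufb4 (0.0562 in limma), at 5.58 and 4.29 FPKM in WT and 3.25 and 2.39 in KO. The fit had 1 residual degree of freedom and, on simulated data, little power for changes of moderate size, and missing the threshold does not show that the genotypes are alike. Cox6b2 differed by -0.13 ± 0.03 and Cox8c by -0.03 ± 0.04. The sum of the 10 spermatid markers was lower in KO spermatocytes, as given above. That of the 7 Sertoli cell markers was higher, at 41.7 to 106 against 15.6 to 22.8 in WT. Of these 7, 3 to 5 were under 1 FPKM in KO and 5 in WT, so few of them carried the sum. The part of these cells in the values was not tested.

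Many respiratory genes differed between the 2 ages of spermatocytes. This comparison was added after the values were seen. Between 5 and 7 months 46 of 82 members fell and 11 rose at an adjusted p under 0.05, with 44.6% of all genes passing, 23.6% higher and 21% lower. The members' median was -0.29 and that of all genes 0.01. Atp5k was at 1119 in WT and 1087 in KO at 5 months, and at 295 and 288 at 7 months (-1.92 ± 0.03, limma adjusted p = 3.14e-05). Uqcrb, Ndufa3, Atp5j2, Uqcr11, Cox6c and Atp5e fell by 1.70, 1.497, 1.34, 1.33, 1.21 and 1.14. Ndufa3 was at 469 and 457, then at 181 and 148, and Cox6c at 767 and 743, then at 333 and 318. In each of these genes both 7-month libraries lay below both 5-month libraries. The catalytic subunits Atp5a1 and Atp5b did not pass, at 145 and 145 against 152 and 155 FPKM for Atp5a1. Ndufs7 rose by 0.46 and Cox6a1 by 0.32.

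By transcript length, of the 14 members with a median transcript of at most 500 bases 11 fell and 0 rose, and of 49 between 500 and 1000 bases 29 fell and 7 rose. From 1000 to 2000 bases 4 of 16 fell and 4 rose. The 3 members from 2000 to 4000 bases did not continue this order, since 2 fell and 0 rose, with a median of -0.73. Over all tested genes 35.9% of those up to 500 bases fell, 26.7% of those from 500 to 1000, 19.2% of those from 1000 to 2000 and 19.0% of those from 2000 to 4000. The shares that rose were 17.9%, 24.9%, 26.2% and 23.9% in the same order. With 1 library per genotype and age, anything else that differed between the ages cannot be told apart from age. This also bears on the comparison with SSCs, where Ndufc1, Cox7b2 and Cox8c were higher than in SSCs at both ages.

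**Figure D5:**
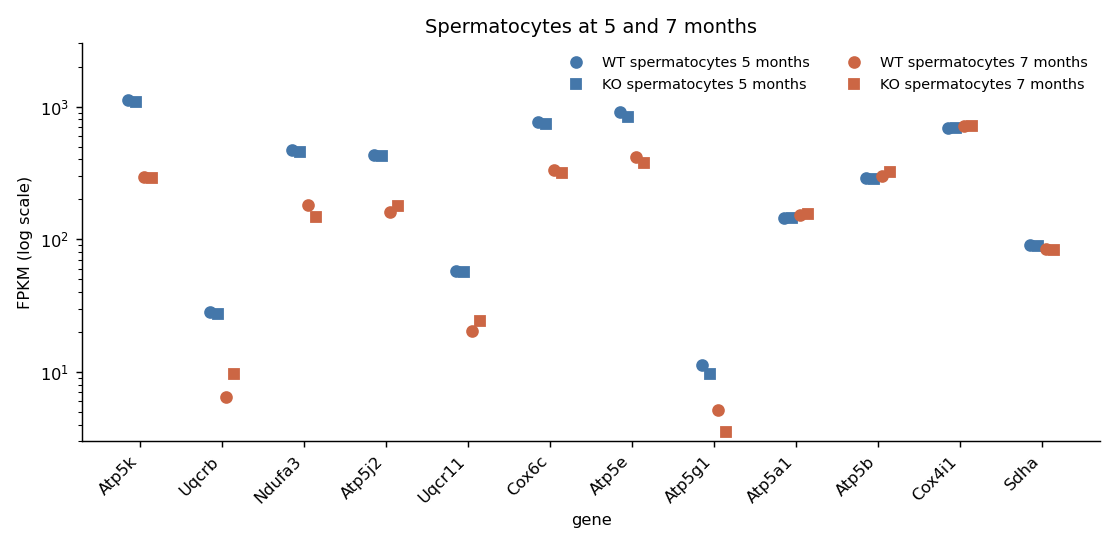
FPKM on a log axis in the 4 spermatocyte libraries (WT circles, KO squares, 5 months blue, 7 months orange) for the 8 members with the largest decrease from 5 to 7 months and for 4 members that did not pass the test. Atp5k went from 1119 and 1087 to 295 and 288, while Cox4i1 was at 689 to 718.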

How the data were processed

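RNA-seq of 12 libraries was analysed in the groups given by the sample labels. The deposited values are FPKM, made by the authors with TopHat2 2.0.6 (alignment, mm9) and Cufflinks 2.0.2, tools taken from the submitters' notes to GEO. The annotation is not given in the sources used here. The deposited FPKM hold no counts, so counting intervals were not computed, except that the confidence limits of the WT 5-month spermatocyte library gave back its fragments: 77.7% of 5879 genes under 30 fragments came out whole within 0.02. Gene positions also came from that library. The 259 symbols that occur more than once were left out.

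Genes that reached 1 FPKM in 2 or more libraries of a fit were tested as log2(FPKM + 1) with limma 3.58.1 in R 4.3.3 (variance trend, Benjamini-Hochberg adjustment over all genes tested). Differences are on this scale, which understates changes of low genes. SSC and c-KIT+ groups shared 1 fit (4 residual degrees of freedom), spermatocytes and SSCs 1 fit over 12 libraries (6), both at an adjusted p under 0.01, and genotype in spermatocytes was fitted with age as a block (1) at 0.05. Errors are standard errors of the limma difference. Cuffdiff, the test the authors used, needs reads. Scripts were tested on simulated data, where fits with spermatocytes recovered fewer moderate changes than the culture fits did. Alternatives were a pseudocount of 0.1, a filter at 5 FPKM or none, scaling by median ratio, quantiles or equal totals, fits of the compared groups only, the replicate block, and leaving out each library. Near-identical copies were found with BLAST+ 2.17.0 among GENCODE transcripts, and promoters were taken from RefSeq.

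The members and gene lists were chosen with earlier results of these data known. Named were the tissue isoforms with their partners, genes on the X chromosome, the highest and lowest gene of each complex, the 5 largest increases and decreases per comparison, all members passing a genotype test, and a few genes per list. Other genes named, such as subunits of complexes I to III and the neighbours of Ndufb7, were chosen after their values were seen. The age comparison and the difference of KO effects between cell types were also added then. Single-gene results of some genes are not reported here.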

Additional observations from a re-analysis of the deposited data

Results flagged for a closer look

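The effect of the KO on Ndufb7 differed between cell types. It was -1.17 in SSCs and 0.00 in spermatocytes, and the difference of the 2 effects was 1.16 ± 0.12 (limma, 12 libraries, adjusted p = 0.00359), where 0.702% of all genes passed. This test was added after the values were seen. It passed in 10 of 14 alternative settings. The 4 that failed each left out 1 SSC library, which left 0 members passing, with adjusted p-values up to 0.0273. The direction was the same in all 14, at 1.11 to 1.35.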

How the results depend on the processing

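The counts of members passing a test moved by more than 1.5 times as follows, and the cause was not tested. Without a filter on low values 5 rose and 1 fell with RA in WT, 5 rose with RA in KO, 5 rose with age, 1 fell in SSCs lacking Zmym3 and 0 rose in c-KIT+ cells lacking it. Under median-ratio scaling 10 fell with RA in WT and 9 in KO, 2 fell in KO c-KIT+ cells, 15 fell in spermatocytes against SSCs in WT and 13 in KO, and 1 fell in KO spermatocytes. Over all genes those that fell with RA went from 1900 to 2584 in WT and from 1912 to 2534 in KO. In KO c-KIT+ cells they went from 191 to 248 and in KO spermatocytes from 125 to 180. In spermatocytes against SSCs they went from 7915 to 6663 in WT and from 7892 to 6583 in KO. Under quantile normalization 5 fell with RA in WT, 2 in KO c-KIT+ cells and 1 in KO spermatocytes. Over all genes these counts were 2250, 248 and 185. With equal totals 5 fell with RA in KO, and the KO gave 2 that rose among SSCs and 2 that fell among c-KIT+ cells. Over all genes these counts were 1831, 492 and 250, against 1912, 253 and 191 without scaling. Fitting only the compared groups gave 5 that fell with RA in WT and 0 that rose in KO c-KIT+ cells. Among the genes named by rule, signs turned in spermatocytes against SSCs under median-ratio scaling for Ndufa7 (0.53), Sdha (0.50) and Sdhd (0.087) in WT. In KO they turned for Sdhd (0.16) and Cox4i1 (0.40). Under quantile normalization they turned for Atp5sl (0.50 in WT and 0.63 in KO).

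Leaving out 1 library at a time gave 3 to 7 that rose and 1 to 2 that fell with RA in WT, and 4 to 7 and 3 to 6 in KO. In spermatocytes against SSCs it gave 22 to 27 and 21 to 28 in WT, and 22 to 30 and 23 to 32 in KO. The KO gave 0 and 1 for SSCs, with 0 to 1 and 1 to 2 for c-KIT+ cells. The interaction gave 0 in both directions. The difference of the KO effects between spermatocytes and SSCs gave 0 to 1 higher and 0 lower.

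No source says what a replicate number marks. Differences between libraries 1 and 2 correlated over genes at 0.17 between SSCs and c-KIT+ cells of WT and at 0.28 in KO, and at -0.07 to 0.09 between the other groups, a hint from the data of a pairing within a genotype that 2 libraries a group cannot settle. With the replicate block 6 rose and 3 fell with RA in WT, 8 and 3 in KO, the KO gave 0 and 2 for SSCs but 1 and 1 for c-KIT+ cells, with 0 for the interaction. In spermatocytes without the age block 0 members passed. Spermatocytes and SSCs share no pairing, so their comparison could not be paired. Low genes such as Ndufs5 and Cox7b in spermatocytes rest on few fragments.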
